A study of Mus musculus with 28 samples.

Results

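Glycolysis splits glucose into pyruvate in the cytosol, and the pyruvate is then either reduced to lactate and exported or taken into the mitochondrion and oxidised. The 37 genes described here cover that route: glucose transporters, hexokinases, phosphofructokinases and the bifunctional enzymes that set fructose 2,6-bisphosphate, aldolases, the enzymes of the lower pathway, lactate dehydrogenases, monocarboxylate transporters, the mitochondrial pyruvate carrier, pyruvate dehydrogenase and its kinases. They were taken by symbol from a count table of 24421 gene symbols, in which all 37 were found. Of these, 36 passed the filter on low counts. Pdk4, a pyruvate dehydrogenase kinase, had no count in any library, which allows up to 3 counts in each.

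The libraries were RNA-seq of mouse thymocytes sorted at 2 stages, DN2/3 and DN4, where DN stands for double negative for CD4 and CD8. Wild-type C57BL/6 mice gave 4 libraries per stage. Mice carrying an Lmo2 transgene (Lmo2tg) gave 5 per stage, and mice carrying the same transgene with Ldb1 deleted (Lmo2tg; Ldb1-KO, here Ldb1-KO) gave 5 per stage, so both mutant groups carry the transgene and no group lacks Ldb1 without it. Lmo2 is a LIM-only protein and Ldb1 is the LIM-binding cofactor that it joins in transcription complexes. The labels name Lck-Cre, Rag1-Cre and IL-7Ra-Cre mice and a floxed Ldb1 allele but do not say which Cre was used for these cells, and they give no age and no transgene promoter. They also call every sample CD4 T cells, whereas DN2/3 and DN4 name double-negative thymocyte subsets.

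In developing thymocytes, cells that have passed the pre-T-cell-receptor checkpoint between DN3 and DN4 are known to divide rapidly, and dividing lymphocytes are known for high glucose uptake and lactate output. Isozymes differ in regulation: Hk2 is the inducible hexokinase and Hk1 the constitutive one, Ldha favours lactate formation, and Slc16a1 and Slc16a3 encode the lactate transporters MCT1 and MCT4. The Pdk kinases switch pyruvate dehydrogenase off, and Mpc1 and Mpc2 form the carrier that admits pyruvate to it.

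The promoters of Ldha, Slc16a1, Pgk1 and Pfkp are shown because these 4 genes rose together from DN2/3 to DN4 in wild type. Each run is the 250 bases before the RefSeq start in GRCm38.p6, 5′ to 3′ on the gene's strand. Capitals mark ACGTG on either strand. This is a form of the hypoxia response element core that the E-box CACGTG also holds, on both strands. The other form of that core, GCGTG, was not marked or counted.
Ldha, chr7:46845554-46845803, + strand: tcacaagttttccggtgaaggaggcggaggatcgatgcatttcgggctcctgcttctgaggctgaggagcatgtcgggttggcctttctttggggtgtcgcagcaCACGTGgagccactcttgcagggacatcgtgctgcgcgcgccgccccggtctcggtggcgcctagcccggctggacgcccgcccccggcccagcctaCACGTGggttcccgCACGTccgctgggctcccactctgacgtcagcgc
Slc16a1, chr3:104638414-104638663, + strand: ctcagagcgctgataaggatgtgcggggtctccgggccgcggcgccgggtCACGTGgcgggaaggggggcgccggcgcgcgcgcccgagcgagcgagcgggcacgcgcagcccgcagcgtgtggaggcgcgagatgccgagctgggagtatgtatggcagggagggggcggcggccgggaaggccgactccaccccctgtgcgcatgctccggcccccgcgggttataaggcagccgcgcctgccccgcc
Pgk1, chrX:106186850-106187099, + strand: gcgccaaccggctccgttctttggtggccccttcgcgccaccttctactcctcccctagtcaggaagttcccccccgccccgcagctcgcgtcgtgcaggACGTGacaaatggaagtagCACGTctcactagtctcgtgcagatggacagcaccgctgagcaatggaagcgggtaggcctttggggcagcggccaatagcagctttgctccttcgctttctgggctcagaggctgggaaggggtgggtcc
Pfkp, chr13:6648772-6649021, - strand: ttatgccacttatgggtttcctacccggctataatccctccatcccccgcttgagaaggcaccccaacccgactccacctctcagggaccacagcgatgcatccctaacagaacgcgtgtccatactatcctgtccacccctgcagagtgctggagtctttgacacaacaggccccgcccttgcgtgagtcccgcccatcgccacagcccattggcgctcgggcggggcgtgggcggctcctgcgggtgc
Counting both strands, ACGTG occurred 5 times in the Ldha window, where 4 of the matches lie in 2 copies of CACGTG, and 2 times each in the Slc16a1 and Pgk1 windows. The Pfkp window held no ACGTG, although GCGTG occurs in it. The RefSeq table matched 36 of the 37 genes, with 56 start sites. ACGTG was in 20 of these 56 windows (35.7%), against 16.6% of all 32851 windows and 17.8% of the 21263 windows of protein-coding genes. CACGTG was in 6 of the 56 (10.7%), against 6.0% and 6.6%. A match describes these letters only.

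Library totals ran from 28.1 to 106.9 M (mega) counts. Lmo2 averaged at most 0.272 CPM in the wild-type groups and at least 30.5 CPM in the 4 transgenic groups, as the labels say. CPM are counts per M counts of the scaled library size. Ldb1 averaged at least 345 CPM where intact and 98.1 and 25.7 CPM in Ldb1-KO DN2/3 and DN4. It was lower at DN4 than at DN2/3 in Ldb1-KO (-1.94 log2 units, edgeR quasi-likelihood test, adjusted p = 0.000146). The stage comparison in Ldb1-KO thus also compares different levels of Ldb1 RNA. Markers of double-positive and mature T cells summed to a median of 566 CPM in wild-type DN4, 1770 CPM in Lmo2tg DN4 (highest 3310, replicate 1) and 1660 CPM in Ldb1-KO DN4 (highest 2490, replicate 2). B cell markers summed to medians of 12.8, 39.6 and 15.4 CPM in the same 3 groups, with 116 CPM in Lmo2tg DN4 replicate 1. The wild-type and transgenic libraries also carry separate series of library names, so that series and genotype cannot be told apart. No label states that replicates came from different mice, and p-values here reflect the spread among the sequenced samples. The libraries differ in sex within each group: Xist ran from 0.556 to 2570 CPM in wild-type DN2/3 and from 0.421 to 1570 CPM in Lmo2tg DN2/3, so the replicates of a group were not all repeats of 1 mouse. Ddx3y, which is Y-linked, was 8.61 CPM or more in all wild-type libraries, also those with high Xist. The 5 sex markers were called in 0 of the 9 comparisons between groups. With sexes mixed within groups, their standard errors ran from 1.33 to 2.91 log2 units, so this test could not show balance. Median Xist was 1580 CPM (DN2/3) and 786 CPM (DN4) for wild type, against at most 1.75 CPM for each transgenic group. Sex and genotype were thus partly mixed. The part of sex in the members' values, such as those of X-linked Pgk1, Pdha1, Pdk3 and Pfkfb1, was not tested. In bulk RNA, fewer cells of a type and less RNA per cell cannot be told apart.

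Levels were scaled to the merged length of all annotated exons of each gene, so comparisons between genes depend on the annotation. On this scale Gapdh was the most abundant member in wild-type DN4, at 511 ± 59.9 CPM per kilobase of exon (SD, n = 4). Next came Ldha at 398 ± 40.4, Pkm at 251 ± 29.6, Pgk1 at 159 ± 11.5 and Tpi1 at 151 ± 23.5. On the same scale and in the same libraries, Hk1 stood at 13.7 ± 0.836 against 7.08 ± 0.848 for Hk2, Pfkl at 24.3 ± 3.94 against 8.08 ± 0.929 for Pfkp, and Slc16a1 at 74.1 ± 5.82 against 0.279 ± 0.0726 for Slc16a3. Sequence shared with other genes limits some of these levels. Of the 101-base stretches of the members' protein-coding transcripts, 67.0% in Pgk1, 53.0% in Gapdh, 39.7% in Pgam1, 39.3% in Eno1, 22.1% in Pfkfb2, 14.9% in Mpc1, 14.1% in Pfkp, 11.9% in Pdha1 and 10.3% in Pdhb also occur in a transcript of another gene. For Pgk1 the main copy is Pgk1-rs7, for Mpc1 it is Mpc1-ps, and for Gapdh the sequence recurs in 85 genes. Pfkp shares sequence with Pitrm1 and Pdha1 with Map3k15, genes that overlap them on the opposite strand. Pfkfb2 shares mainly with Gm29427, which overlaps it on the same strand. Eno1 had only 0 to 34 counts per library, although alpha-enolase is the usual enolase of lymphocytes, so its values below are those of an almost uncounted gene. The handling of reads that match several genes was not given in the sources used here.

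From DN2/3 to DN4 in wild type, the members rose more often than they fell. Of 36 tested, 15 rose and 8 fell (23 in all), where 21.1% of all 14371 genes rose and 24.8% fell (46.0% in all). The median member changed by 0.31 log2 units, against -0.06 over all genes. A gene is called changed where the adjusted p of edgeR's quasi-likelihood test, with Benjamini-Hochberg adjustment over all genes, is under 0.05. The share of members called was 63.9%. None of the 23 called members overlapped between the stages, nor did 94.2% of all genes called. Scaling by library totals alone moved the median of all genes to -0.19.

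The members that rose in wild type spanned the payoff phase and both fates of pyruvate. Ldha, which makes lactate, rose from 625 ± 63.7 to 1320 ± 133 CPM (SD, n = 4), a log2 change of 1.08 (SE 0.19, adjusted p = 6.35e-05), and Slc16a1, which exports it, from 152 ± 10.6 to 328 ± 25.8 CPM (1.11, SE 0.21, adjusted p = 0.000127). Pfkp, the platelet-type phosphofructokinase, stood at 48.1, 42.6, 40.7 and 40 CPM in DN2/3 and at 110, 96.9, 125 and 101 CPM in DN4. Every DN4 library was above every DN2/3 library, by 1.34 log2 units (SE 0.2, adjusted p = 1.54e-05). Pgk1, the first ATP-forming enzyme of the pathway, stood at 210, 176, 194 and 191 CPM and then at 353, 323, 366 and 384 CPM, which was higher in all 4 DN4 libraries (0.89, adjusted p = 0.000102). Dlat, the acetyltransferase core of pyruvate dehydrogenase, stood at 63.8, 57.6, 61.5 and 59.7 CPM and then at 99.4, 103, 107 and 97.5 CPM. Pdhb, the beta subunit of its first component, stood at 111, 117, 120 and 109 CPM and then at 163, 157, 158 and 162 CPM. The replicates of both genes lay close together and apart between stages (Dlat 0.74, SE 0.11, adjusted p = 9.44e-06, and Pdhb 0.48, SE 0.07, adjusted p = 1.87e-05). The other risers were Aldoa (0.63), Pgam1 (0.93), Pkm (0.75), Tpi1 (0.91), Hk2 (0.72), Slc2a3 (0.45), Mpc2 (0.34), the kinase Pdk3 (0.38) and Eno1 (1.55).

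The 8 members that fell in wild type included 2 of the kinases that hold pyruvate dehydrogenase inactive and 3 of the 4 bifunctional fructose 2,6-bisphosphate enzymes. Pdk1 stood at 167, 210, 184 and 160 CPM in DN2/3 and at 107, 115, 90.9 and 87.3 CPM in DN4, lower in every DN4 library (-0.85, adjusted p = 3.44e-05). Pdk2 changed by -1.68 (adjusted p = 0.000115). Pfkfb4 stood at 19.5, 18.1, 16.1 and 15.5 CPM and then at 5.57, 7.69, 6.56 and 6.39 CPM. Its stages were far apart, at -1.4 log2 units (SE 0.18, adjusted p = 1.85e-06). Pfkfb2 stood at 31.2, 42.2, 40.6 and 40.7 CPM and then at 20.4, 26.7, 21.9 and 21.5 CPM (-0.77, adjusted p = 0.00121), and Pfkfb3 at 82, 81.3, 84.1 and 80 CPM and then at 67.9, 71.7, 69.8 and 72.8 CPM (-0.21, adjusted p = 0.0454). For both, the lowest DN2/3 library was above the highest DN4 library. Aldoc, the brain-type aldolase, stood at 10.3, 10.1, 12.4 and 9.41 CPM in DN2/3 and at 1.76, 1.69, 2.3 and 2.23 CPM in DN4, which was lower throughout (-2.41, adjusted p = 0.000172). Hk3, a hexokinase usually linked to myeloid cells, stood at 1.54, 1.03, 0.582 and 0.545 CPM and then at 0.0732, 0.0286, 0.0317 and 0.0507 CPM, 278 counts against 13 over the groups (-4.25, adjusted p = 0.000182). The myeloid marker sum fell with it, from a median of 21.1 CPM to 2.23 CPM, mainly through Lyz2 (mean 16.4 CPM and then 0.0714 CPM). Of 7 tested myeloid markers, 3 were lower and 0 higher, where 24.8% of all genes fell. Their part in the Hk3 values was not tested. Bpgm, which makes 2,3-bisphosphoglycerate, was at 41.7, 42.7, 40.5 and 38.8 CPM and then at 34, 30.1, 28.9 and 28.1 CPM, again without overlap (-0.43, adjusted p = 0.000407).

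Same-numbered libraries of the 2 stages varied together within each genotype, so the stage change was also fitted within replicate numbers. That paired fit called 31 members in wild type (22 higher and 9 lower, where 34.3% of all genes were higher and 35.3% lower, 69.7% in all). It added Slc2a1 (0.22, adjusted p = 0.0286), Hk1 (-0.3, adjusted p = 0.00108), Gpi1 (0.21, adjusted p = 0.0126), Pfkl (0.29, adjusted p = 0.00359), Pfkfb1 (0.63, adjusted p = 0.00122), Gapdh (0.76, adjusted p = 2.2e-06), Pdha1 (0.23, adjusted p = 0.00333) and Mpc1 (0.3, adjusted p = 0.00853). Gapdh had narrowly missed the threshold unpaired (0.72, adjusted p = 0.0555). Of the unpaired calls, leaving out 1 wild-type library ended that of Pfkfb3 for any of the 8 (adjusted p 0.0617 to 0.167), of Hk2 and Tpi1 for DN2/3 replicate 2, 3 or 4 or DN4 replicate 3 (0.0609 to 0.0764 and 0.0575 to 0.071), of Slc2a3 for DN2/3 replicate 3 or 4 (0.0513 to 0.0516), and of Eno1 and Pkm for DN2/3 replicate 2 (0.0736 and 0.0574). All 14 proliferation genes rose in the same comparison, their sum going from a median of 3470 CPM to 8490 CPM, and their part in the members' change was not tested.

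**Figure D1:**
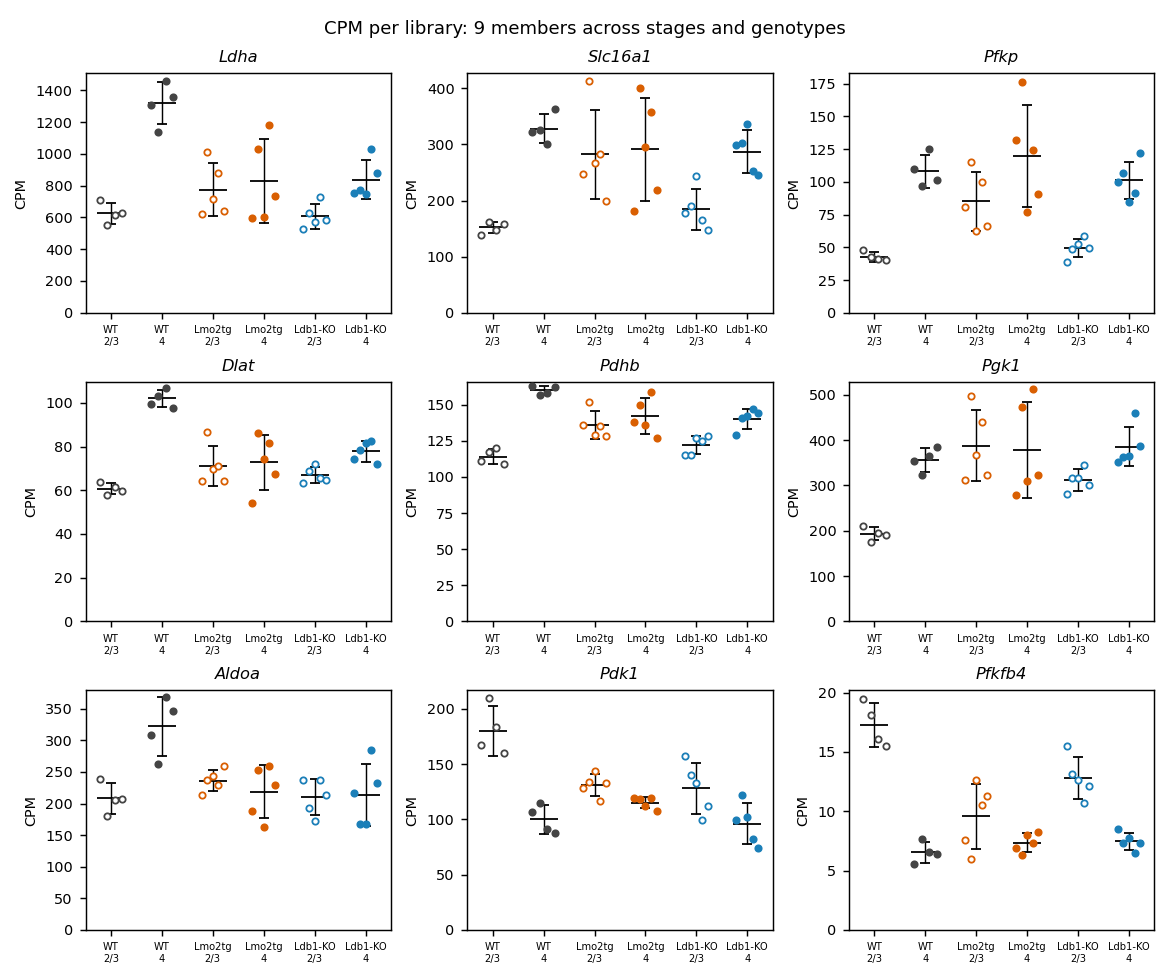
CPM of Ldha, Slc16a1, Pfkp, Dlat, Pdhb, Pgk1, Aldoa, Pdk1 and Pfkfb4 in each library by genotype (open points DN2/3, filled points DN4, bars mean ± SD, each vertical axis with its own range). In wild type the stages separate for all 9 genes, such as Ldha from 625 to 1320 CPM, whereas the Lmo2tg points of the 2 stages overlap.

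In Lmo2tg, 3 of 36 members rose and 2 fell between the stages, where 8.32% of all genes rose and 7.04% fell (15.4% in all), so the share of members called, 13.9%, was near that of all genes. The ranges of the 2 stages overlapped for each of the 5, where 26.9% of all genes called did not overlap. The median member changed by 0.05 log2 units, against 0 over all genes. Eno3, the muscle-type enolase, stood at 17.4, 14.1, 16.6, 18.2 and 18.4 CPM in DN2/3 and at 47.5, 53.7, 26.6, 17.2 and 25 CPM in DN4 (1.01, SE 0.2, adjusted p = 0.00125). Replicates 1 and 2 of DN4 were the highest, and replicate 4 lay within the DN2/3 range. Slc16a3, the high-capacity lactate exporter, stood at 3, 4.25, 4.3, 3.45 and 3.13 CPM and then at 6.27, 19.2, 7.04, 4.19 and 6.56 CPM (1.25, SE 0.31, adjusted p = 0.00671). Replicate 2 of DN4 stood far above the rest, and without it the adjusted p was 0.05. Hk1 stood at 229, 185, 312, 236 and 275 CPM and then at 147, 131, 189, 165 and 218 CPM, lower within every replicate number (-0.54, SE 0.14, adjusted p = 0.00864). Aldoc stood at 0.948, 2.42, 3.86, 7.84 and 3.25 CPM and then at 0.563, 1.01, 1.25, 2.78 and 1.82 CPM, also lower within each number (-1.3, adjusted p = 0.0285). Bpgm stood at 34.3, 37.9, 39.1, 38.7 and 40.6 CPM and then at 44.4, 48.5, 45.7, 38.3 and 50.3 CPM, higher in all numbers but 4 (0.25, adjusted p = 0.0325). Leaving out DN2/3 replicate 3 or 4 or DN4 replicate 1, 2 or 3 ended the Aldoc call (adjusted p 0.0531 to 0.155), and leaving out DN2/3 replicate 1, 3 or 4 or DN4 replicate 2, 3 or 5 ended that of Bpgm (0.0511 to 0.0909). The paired fit also called 5 members (2 higher and 3 lower, where 8.21% of all genes were higher and 9.95% lower): it added Pfkp (0.49, adjusted p = 0.011) and Pdk2 (-0.76, adjusted p = 0.00895) and lost Bpgm (0.26, adjusted p = 0.0779) and Eno3 (0.9, adjusted p = 0.0539). Fitting the 2 Lmo2tg groups alone called 0, and 2.47% of all genes.

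Genes of lower glycolysis varied widely between Lmo2tg libraries of the same stage. Gapdh ran from 1020 to 1800 CPM in Lmo2tg DN2/3 and from 509 to 2290 CPM in DN4, and Tpi1 from 135 to 340 and from 93.9 to 398 CPM. Replicates 2 and 4 were the highest at both stages in Gapdh, Tpi1, Pkm, Ldha and Hk2. Replicate 2 also had the highest Xist of its group at both stages (1570 and 1550 CPM). The same replicates had the highest sums of the proliferation genes in DN4, where the group ran from 2830 to 7450 CPM. The part of proliferation in these values was not tested. Leaving out DN4 replicates 2 and 4 together, a choice made after seeing the data, took the number of members called between the stages from 5 to 12 and the share of all genes called from 15.4% to 26.9%. Leaving out single libraries gave 10 members and 20.4% of all genes (without DN2/3 replicate 2), 3 and 11.8% (without DN2/3 replicate 3), 2 and 12.4% (without DN4 replicate 2) and 9 members and 3450 of 14360 genes (without DN4 replicate 4).

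In Ldb1-KO, 9 members rose and 7 fell from DN2/3 to DN4, where 12.3% of all genes rose and 15.8% fell (28.1% in all). The median member changed by 0.2 log2 units, against -0.02 over all genes. Pfkp stood at 38.8, 48.4, 52.4, 58.6 and 49.2 CPM in DN2/3 and at 100, 107, 84.8, 91.7 and 122 CPM in DN4, with no overlap (1.03, SE 0.18, adjusted p = 0.000143). Pfkfb4 stood at 15.5, 13.1, 12.6, 10.7 and 12.1 CPM and then at 8.5, 7.32, 7.72, 6.49 and 7.35 CPM, and Aldoc at 4.59, 7.08, 5.81, 6.62 and 5.93 CPM and then at 1.01, 0.97, 2.75, 2.08 and 1.62 CPM. Both were lower in every DN4 library (Pfkfb4 -0.78, adjusted p = 0.000717, and Aldoc -1.83, adjusted p = 0.00141). Eno3 stood at 17.8, 14.6, 13.6, 13.6 and 14.6 CPM and then at 27.8, 29.8, 22.7, 21.1 and 33.2 CPM, higher in all 5 DN4 libraries (0.86, adjusted p = 0.00248). Slc16a1 (0.64, adjusted p = 0.0107), Slc16a3 (1.22, adjusted p = 0.00486), Ldha (0.46, adjusted p = 0.0387), Ldhb (0.58, adjusted p = 0.0128), Pdk3 (0.33), Pdhb (0.2) and Eno2 (1.34) also rose. Pfkfb3 (-0.3), Pdk2 (-0.94), Pdk1 (-0.42), Hk1 (-0.44) and Hk3 (-1.97) fell.

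The paired fit in Ldb1-KO called 28 members, 18 higher and 10 lower (31.2% and 28.5% of all genes). Of the 12 added members, 5 were of the lower pathway: Tpi1 (0.38), Gapdh (0.49), Pgk1 (0.33), Pgam1 (0.36) and Pkm (0.28), with adjusted p from 0.000414 to 0.00517. Dlat (0.24), Pdha1 (0.11), Mpc1 (0.25) and Mpc2 (0.22), which carry pyruvate into oxidation, were also higher, and Pfkl (-0.24), Pfkm (-0.18) and Pfkfb2 (-0.31) lower. Some of the 16 unpaired calls ended when 1 library was left out, and 10 members were called without DN2/3 replicate 1 (21.7% of all genes). Those of Hk1 (without DN2/3 replicate 1 or 5 or DN4 replicate 2, adjusted p 0.051 to 0.0611), Hk3 (without DN2/3 replicate 1 or DN4 replicate 2 or 5, 0.0528 to 0.098) and Pdhb (without DN2/3 replicate 1 or 2 or DN4 replicate 4, 0.0525 to 0.07) ended, as did those of Pdk1 (without DN2/3 replicate 1 or DN4 replicate 5, 0.0572 to 0.0693) and Ldhb (without DN4 replicate 2, 0.0619). Ldha missed the threshold without DN2/3 replicate 1, 2, 3 or 5 or DN4 replicate 4 or 5 (0.0562 to 0.111), and Eno2 without DN2/3 replicate 1, 2, 4 or 5 or DN4 replicate 1, 2, 3 or 5 (0.0541 to 0.109). Of the 14 proliferation genes, 12 rose in the same comparison.

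**Figure D2:**
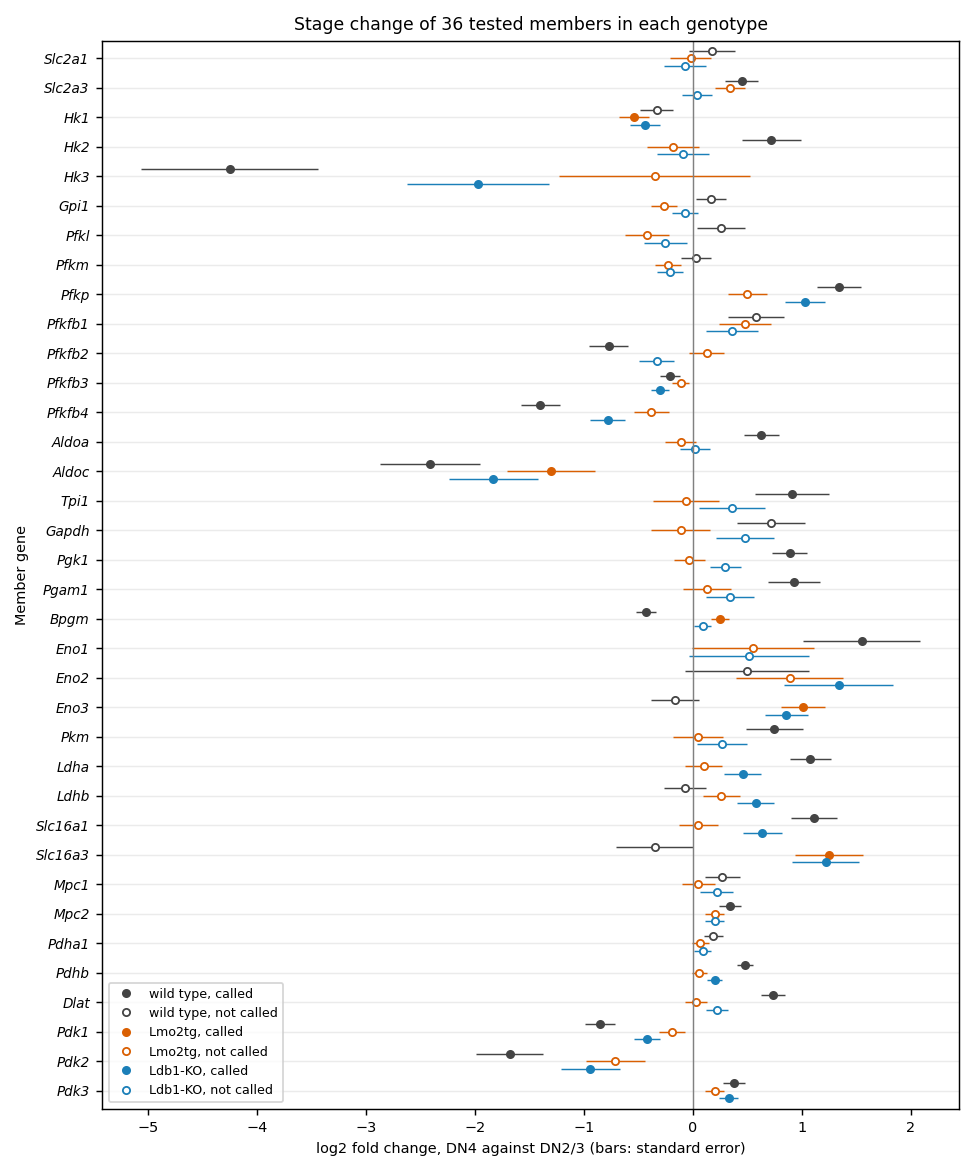
Log2 fold change from DN2/3 to DN4 for each tested member in wild type, Lmo2tg and Ldb1-KO, with the standard error as a bar and a filled point where the adjusted p is under 0.05. Filled points number 23 in wild type, 5 in Lmo2tg and 16 in Ldb1-KO.

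The difference between genotypes in the stage change was tested as an interaction. Lmo2tg differed from wild type for 14 members, 7 with a more positive and 7 with a more negative stage change, where 14.7% and 11.0% of all genes did so (25.6% in all). Bpgm (0.69, SE 0.12, adjusted p = 0.000547), Pfkfb4 (1.02, SE 0.24, adjusted p = 0.00479), Eno3 (1.17), Pfkfb2 (0.9), Pdk1 (0.66), Slc16a3 (1.61) and Hk3 (3.9) were on the positive side. Dlat (-0.71, SE 0.15, adjusted p = 0.00178), Pgk1 (-0.92, SE 0.21, adjusted p = 0.00476), Pdhb (-0.42), Ldha (-0.98), Slc16a1 (-1.07), Aldoa (-0.74) and Pfkp (-0.84) were on the negative side. The calls of Hk3 (without Lmo2tg DN4 replicate 1 or 3, adjusted p 0.0804 to 0.124) and Pfkp (without wild-type DN2/3 replicate 4, wild-type DN4 replicate 3 or Lmo2tg DN2/3 replicate 2, 0.0502 to 0.0587) ended when 1 library was left out. Without Lmo2tg DN4 replicate 4, 22 members were called (37.7% of all genes). The paired fit called 23 members (9 positive and 14 negative, where 22.3% and 22.2% of all genes were called, 44.5% together), adding among others Gapdh (-1.01, adjusted p = 0.0101), Tpi1 (-1.12, adjusted p = 0.00203), Pkm (-0.79, adjusted p = 0.00597) and Hk2 (-1.0, adjusted p = 0.00184). Of the 14 proliferation genes, 13 also differed in the negative direction, and their part was not tested.

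Ldb1-KO differed from Lmo2tg in the stage change for 0 of 36 members by edgeR, where 1.36% of all genes differed. At an unadjusted p under 0.05 there were 2, and DESeq2 called 0. The paired fit called 3, all more positive in Ldb1-KO: Slc16a1 (0.62, adjusted p = 0.0149), Pgk1 (0.36, adjusted p = 0.0373) and Pfkp (0.56, adjusted p = 0.0463), where 3.56% of all genes were more positive. Against wild type, a comparison added after the data were seen, Ldb1-KO differed for 0 members by edgeR (0.216% of all genes, 0.0348% in the negative direction), with 13 at an unadjusted p under 0.05 and 3 by DESeq2. The paired fit called 22 (9 positive and 13 negative, where 15.8% and 17.5% of all genes were called), including Ldha (-0.62, adjusted p = 0.000223), Pgk1 (-0.59, adjusted p = 0.000128), Dlat (-0.53, adjusted p = 0.000164), Hk2 (-0.79, adjusted p = 0.000226) and Eno3 (1.0, adjusted p = 0.000119).

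Within DN2/3, the Lmo2 transgene went with higher Mpc1, Pgk1, Pfkp, Hk1 and Slc2a3 and lower Hk3 and Pfkfb4. Of 36 members, 10 were higher and 6 lower than in wild type, where 15.1% of all genes were higher and 14.4% lower (29.5% in all). The median member differed by 0.05 log2 units, against 0.01 over all genes. Mpc1 stood at 11.7, 12.8, 11.3 and 11.5 CPM in wild type and at 26.2, 34.2, 28.5, 31.6 and 21.9 CPM in Lmo2tg. The lowest Lmo2tg library was well above the highest wild-type one (1.27, SE 0.16, adjusted p = 8.69e-07). Its partner Mpc2 differed by 0.01. Pgk1 stood at 313, 497, 367, 441 and 324 CPM in Lmo2tg, each above all wild-type DN2/3 libraries given above (1.01, SE 0.15, adjusted p = 1.53e-05). Mpc1 and Pgk1 both share sequence with processed copies.

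At the entry of the pathway in DN2/3, Slc2a3, the neuronal-type glucose transporter GLUT3, stood at 25, 26.4, 22.5 and 22.5 CPM in wild type and at 42.8, 42.7, 36.3, 36.2 and 35.2 CPM in Lmo2tg, without overlap (0.68, adjusted p = 0.000903). Hk1 stood at 148, 132, 150 and 162 CPM in wild type, below every Lmo2tg library (0.74, adjusted p = 0.000379). Hk3 went the other way: Lmo2tg libraries held 0.105, 0.0577, 0, 0 and 0.0602 CPM, 14 counts over the group against 278 in wild type (-4.21, SE 0.76, adjusted p = 0.000126). Pfkp stood at 81.1, 115, 62.3, 100 and 66 CPM in Lmo2tg, all above wild type (0.99, adjusted p = 0.000317). Pfkfb4 stood at 7.58, 5.94, 12.6, 10.5 and 11.3 CPM in Lmo2tg, all below wild type (-0.86, adjusted p = 0.000291). Pfkfb2, at 28.3, 18.9, 25.4, 24.4 and 30 CPM, was also below (-0.61, adjusted p = 0.00794), as was Pfkfb1 on average (-0.79, adjusted p = 0.0181) with overlap.

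Further down in DN2/3, Slc16a1 (0.89, adjusted p = 0.00103), Slc16a3 (0.94, adjusted p = 0.0335), Pgam1 (0.66, adjusted p = 0.0325) and Eno2, the neuronal enolase (2.44, adjusted p = 0.00168), were higher and Aldoc lower (-1.54, adjusted p = 0.0059). Pdk1 stood at 128, 134, 144, 117 and 133 CPM in Lmo2tg, below every wild-type library (-0.46, adjusted p = 0.00881), and Pdhb at 136, 152, 129, 135 and 128 CPM, above every one (0.25, adjusted p = 0.00905). Leaving out 1 library ended the calls of Pfkfb1 (wild-type replicate 1 or 2 or Lmo2tg replicate 1, adjusted p 0.0505 to 0.0766), Pgam1 (any wild-type replicate or Lmo2tg replicate 2 or 4, 0.0532 to 0.122) and Slc16a3 (any wild-type replicate or Lmo2tg replicate 2 or 3, 0.0551 to 0.0796). Myeloid markers had median sums of 21.1 CPM in wild type and 9.19 CPM in Lmo2tg, with 3 and 1 of 11 genes at 0 throughout. Of the 7 myeloid markers tested, 1 was higher and 1 lower in Lmo2tg, with a median log2 difference of 0.48. Markers of double-positive and mature T cells had median sums of 729 CPM (691 to 842) in wild type and 1270 CPM (1180 to 1590) in Lmo2tg, with 7 of 10 higher. Of 14 double-negative thymocyte markers, 9 were lower and 2 higher in Lmo2tg. The part of these cell types in the members' values was not tested.

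Within DN4, the transgene went with lower Hk2, Pfkl, Ldha, other pathway genes and pyruvate dehydrogenase subunits, and with higher Hk1, Eno2 and Eno3. Not called were Pgk1, averaging 356 CPM in wild type and 379 CPM in Lmo2tg, and Pgam1, at 110 and 99.2 CPM. Of 36, 8 were higher and 13 lower in Lmo2tg, where 28.9% of all genes were higher and 23.5% lower (52.4% in all) and 58.3% of the members were called. The median member differed by -0.14 log2 units, against 0.07 over all genes. The 13 lower ones were Hk2 (-1.05), Gpi1 (-0.41), Pfkl (-1.0), Pfkfb1 (-0.89), Aldoa (-0.56), Tpi1 (-0.95), Gapdh (-0.71), Eno1 (-1.93), Pkm (-0.75), Ldha (-0.67), Pdha1 (-0.26), Pdhb (-0.17) and Dlat (-0.48). Pfkl, the liver-type phosphofructokinase, stood at 155, 132, 195 and 168 CPM in wild type and at 49.7, 97.8, 50.6, 127 and 80.6 CPM in Lmo2tg, lower throughout (SE 0.21, adjusted p = 0.000376). Dlat stood at 54.1, 86.4, 74.5, 81.5 and 67.3 CPM in Lmo2tg, below all 4 wild-type libraries (adjusted p = 0.000451), whereas Pdhb, at 138, 150, 136, 159 and 127 CPM, overlapped wild type (adjusted p = 0.0436). Hk2 averaged 20.4 ± 10.4 CPM (n = 5) against 42.3 ± 5.07 CPM (n = 4) (adjusted p = 0.00153). For Gpi1, Tpi1, Gapdh, Pkm, Ldha and Pdha1 the groups also overlapped, Lmo2tg replicates 2 and 4 standing highest in Tpi1, Gapdh, Pkm and Ldha.

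The 8 members higher in Lmo2tg DN4 were Slc2a3, Hk1, Pfkfb3, Bpgm, Eno2, Eno3, Slc16a3 and Mpc1. Slc16a3 was at 1.19, 1.12, 1.9 and 1.72 CPM in wild-type DN4 and 4.19 CPM or more in Lmo2tg (2.54, SE 0.35, adjusted p = 3.48e-06). Mpc1 stood at 13.3, 14.3, 15 and 14.3 CPM in wild type and at 24.1, 32.2, 40.4, 28.4 and 22.5 CPM in Lmo2tg (1.05, SE 0.16, adjusted p = 9.99e-06). Neither gene overlapped, nor did Bpgm, whose 2 groups are given above (0.59, SE 0.09, adjusted p = 7.72e-06). Eno3 stood at 15.7, 14.7, 15.3 and 13.6 CPM in wild type, below all Lmo2tg libraries (1.2, SE 0.22, adjusted p = 9.56e-05). Eno2 ranged from 0.349 to 0.723 CPM in wild type and from 2.03 to 9.64 CPM in Lmo2tg (2.82, adjusted p = 0.000275). Hk1 stood at 121, 109, 125 and 114 CPM in wild type, again below all Lmo2tg libraries (0.54, adjusted p = 0.00394). Slc2a3, at 34.4, 36.8, 31 and 29.7 CPM in wild type and at 43.6, 46.7, 55.4, 35.4 and 63.8 CPM in Lmo2tg, overlapped through Lmo2tg replicate 4 (0.57, adjusted p = 0.00253). Pfkfb3 stood at 94.2, 81.7, 91.1, 73.6 and 72.7 CPM in Lmo2tg, with a small overlap (0.23, adjusted p = 0.0228).

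The calls of 3 members in Lmo2tg DN4 against wild type ended when any 1 of several libraries was left out. Pfkfb3 lost its call without wild-type replicate 1, 2 or 3 or Lmo2tg replicate 1 or 3 (adjusted p 0.0524 to 0.0893), and Gapdh and Pdhb without wild-type replicate 1, 3 or 4 or Lmo2tg replicate 1, 3 or 5 (0.0621 to 0.113 and 0.0574 to 0.122). In the same comparison 10 of the 14 proliferation genes were lower, all 10 B cell markers and 8 of 10 tested markers of double-positive and mature T cells were higher, and the part of each in the members' values was not tested. Without Lmo2tg DN4 replicates 2 and 4, 25 members (10 higher and 15 lower) and 59.0% of all genes were called.

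**Figure D3:**
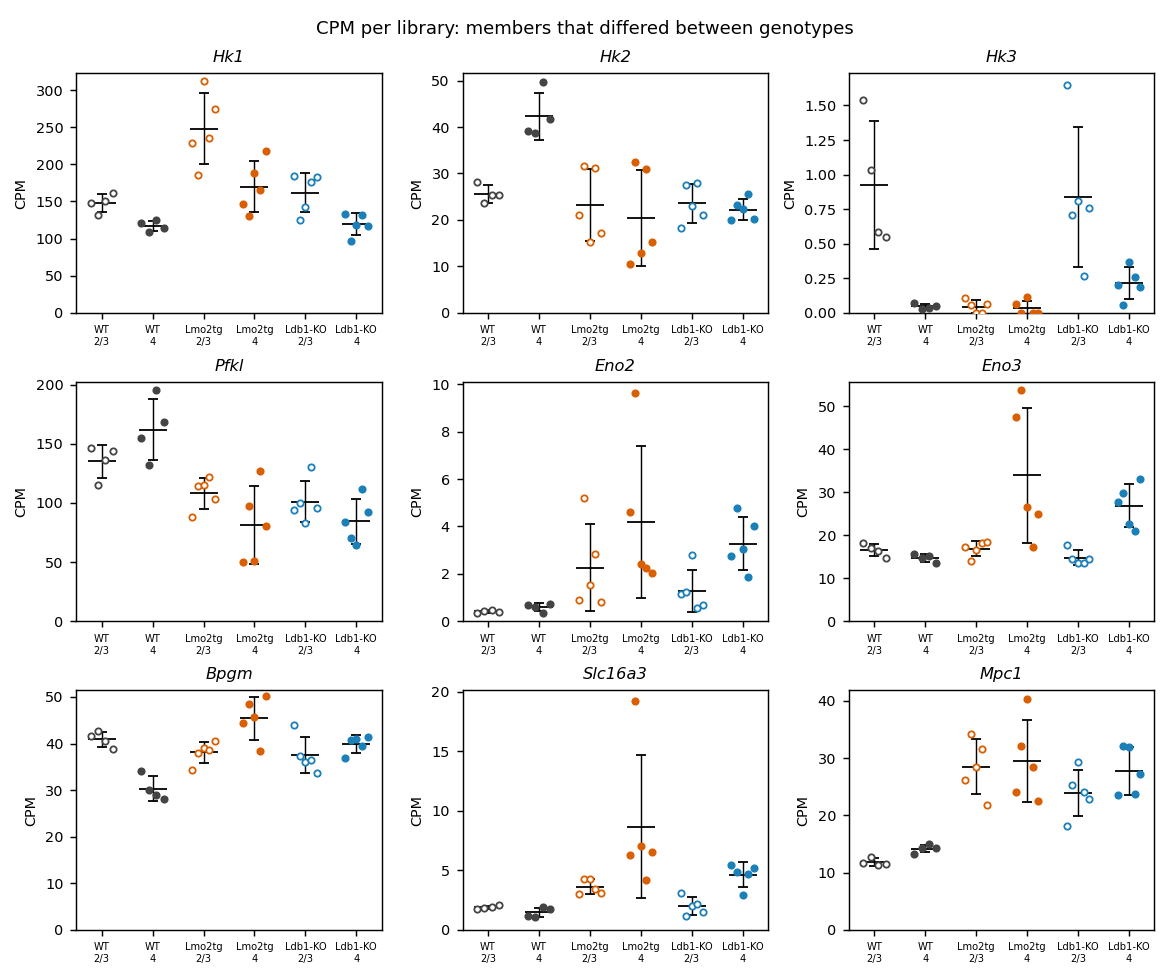
CPM of Hk1, Hk2, Hk3, Pfkl, Eno2, Eno3, Bpgm, Slc16a3 and Mpc1 in each library by genotype (open points DN2/3, filled points DN4, bars mean ± SD, each vertical axis with its own range). Mpc1 lies at 15 CPM or less in every wild-type library and at 18.1 CPM or more in every library of the transgenic genotypes.

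With Ldb1 deleted on the transgenic background, Hk3 and Pfkfb2 were higher and Hk1, Pfkp, Slc16a1 and Pfkm lower than in Lmo2tg at DN2/3. These 2 higher and 4 lower of 36 members (16.7%) stand beside 8.87% of all genes higher and 7.22% lower (16.1% in all), so the share called was near that of all genes. The median member differed by -0.16 log2 units, against -0.01. Hk3 stood at 1.65, 0.705, 0.806, 0.266 and 0.755 CPM in Ldb1-KO, each above all Lmo2tg libraries (4.08, SE 0.74, adjusted p = 0.000265). Hk1 stood at 184, 125, 143, 176 and 183 CPM, just under the lowest Lmo2tg library (-0.61, SE 0.14, adjusted p = 0.00258). Pfkp, given above for both groups, was lower in every Ldb1-KO library (-0.78, SE 0.18, adjusted p = 0.00294). Pfkfb2 stood at 39.1, 41, 37.9, 29.5 and 41.2 CPM in Ldb1-KO, where replicate 4 fell within the Lmo2tg range (0.57, SE 0.16, adjusted p = 0.0147). Slc16a1 (-0.61, adjusted p = 0.0211) and Pfkm, the muscle-type phosphofructokinase (-0.38, adjusted p = 0.034), were lower with overlap. The Slc16a1 call ended without Lmo2tg replicate 2 or Ldb1-KO replicate 5 (adjusted p 0.0671 to 0.0963) and that of Pfkm without Lmo2tg replicate 3, 4 or 5 or Ldb1-KO replicate 2, 4 or 5 (0.0616 to 0.115). The myeloid marker sum, 9.19 CPM at the median in Lmo2tg, was 28.2 CPM in Ldb1-KO, beside the Hk3 values. Lyz2 averaged 2.62 CPM in Lmo2tg and 14.1 CPM in Ldb1-KO, and Mpo 0.851 and 5.95 CPM. Of 7 tested myeloid markers, 2 were higher and 0 lower in Ldb1-KO, and their part was not tested.

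At DN4, 1 member was higher and 4 were lower in Ldb1-KO than in Lmo2tg, where 5.85% of all genes were higher and 8.71% lower (14.6% in all), so the share of members called, 13.9%, was near that of all genes. The median over members and over all genes was -0.02. Pfkfb3 stood at 61.9, 64.6, 64.5, 62.6 and 63.9 CPM in Ldb1-KO, a narrow range below every Lmo2tg library (-0.38, SE 0.08, adjusted p = 0.00141). Slc2a3 stood at 31.2, 33.9, 31.4, 38.6 and 34.6 CPM (-0.53, SE 0.14, adjusted p = 0.0102) and Hk1 at 133, 96.7, 118, 132 and 117 CPM (-0.51, SE 0.14, adjusted p = 0.0127). Both overlapped Lmo2tg, through Lmo2tg replicate 4 for Slc2a3 and replicate 2 for Hk1. Hk3 stood at 0.203, 0.0588, 0.369, 0.26 and 0.187 CPM in Ldb1-KO and 0.0643, 0, 0.111, 0 and 0 CPM in Lmo2tg, 52 counts against 9 over the groups (2.47, SE 0.79, adjusted p = 0.037). Slc16a3 stood at 5.48, 4.89, 2.89, 4.71 and 5.23 CPM in Ldb1-KO (-0.9, SE 0.31, adjusted p = 0.0489). Of these 5, the calls of Hk1 (without Lmo2tg replicate 5, adjusted p 0.0529), Hk3 (without Lmo2tg replicate 2, 4 or 5 or Ldb1-KO replicate 1, 3 or 4, 0.0556 to 0.0999) and Slc16a3 (without Lmo2tg replicate 2 or any Ldb1-KO replicate, 0.0623 to 0.333) ended when 1 library was left out, and 3 members were called without Lmo2tg replicate 5 or Ldb1-KO replicate 1 or 3 (11.9%, 11.5% and 12.2% of all genes). Fitting these 2 groups alone called 0, and 5.2% of all genes. None of Ldha, Pkm, Gapdh, Tpi1, Hk2, Pfkl and Dlat passed the test, while 5 of the 14 proliferation genes were higher and 6 of 10 B cell markers lower in Ldb1-KO.

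Set against wild type, Ldb1-KO DN2/3 differed in 4 members, 3 higher and 1 lower, where 6.98% of all genes were higher and 2.58% lower (9.56% in all), so the share of members called, 11.1%, was near that of all genes. The median member differed by -0.09 log2 units, against -0.01. Mpc1 stood at 18.1, 25.4, 29.3, 24.1 and 22.8 CPM in Ldb1-KO, above every wild-type library (1.02, SE 0.16, adjusted p = 8.26e-05). Pgk1 stood at 281, 316, 316, 346 and 300 CPM, also above every one (0.7, SE 0.15, adjusted p = 0.00406). Pdk1 stood at 157, 140, 133, 99.3 and 112 CPM, below every one (-0.49, SE 0.13, adjusted p = 0.0166). Slc2a3 stood at 23.5, 35.7, 29, 42.8 and 34.7 CPM, replicate 1 lying within wild type (0.46, SE 0.15, adjusted p = 0.0483). The Pdk1 call ended without wild-type replicate 2 (adjusted p 0.0762), without which 2 members and 6.32% of all genes were called, and that of Slc2a3 without any wild-type replicate or Ldb1-KO replicate 2, 3, 4 or 5 (0.0534 to 0.127). Hk3 (0.837 ± 0.505 CPM, n = 5, against 0.924 ± 0.464 CPM, n = 4) and Pfkp (49.5 ± 7.19 against 42.8 ± 3.67 CPM) did not pass the test. Fitting these 2 groups alone called 10 members and 22.3% of all genes. Markers of double-positive and mature T cells were higher in 9 of 10 and double-negative markers lower in 5 of 14 in the same comparison, and their part was not tested.

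In DN4, Ldb1-KO had 6 members higher and 11 lower than wild type, where 18.2% of all genes were higher and 14.4% lower (32.6% in all). The median member differed by -0.12 log2 units, against 0.03. Mpc1 stood at 23.6, 32.2, 32, 23.7 and 27.3 CPM, above wild type throughout (0.97, SE 0.16, adjusted p = 0.000125). Slc16a3 was above wild type in every library (1.64, SE 0.34, adjusted p = 0.00127), as was Bpgm, at 36.9, 40.7, 40.9, 39.5 and 41.5 CPM (0.4, SE 0.09, adjusted p = 0.00178). Eno2 (2.47), Eno3 (0.86) and Hk3 (2.16) were also higher. Pfkl stood at 83.9, 70.1, 64.4, 112 and 92.7 CPM, below wild type throughout (-0.94, SE 0.21, adjusted p = 0.00215). Also lower were Hk2 (-0.93), Gpi1 (-0.47), Pfkm (-0.49), Aldoa (-0.59), Eno1 (-1.51), Pkm (-0.67), Ldha (-0.66), Pdha1 (-0.31), Pdhb (-0.19) and Dlat (-0.38). Dlat stood at 74.2, 78.6, 81.8, 82.5 and 71.8 CPM in Ldb1-KO and Pdhb at 129, 141, 142, 147 and 144 CPM, both below all wild-type DN4 libraries. Leaving out 1 library ended 4 calls: Hk3 (any wild-type replicate or Ldb1-KO replicate 1, 3 or 4, adjusted p 0.0515 to 0.102), Eno1 (wild-type replicate 1, 2 or 3 or Ldb1-KO replicate 1, 2, 3 or 5, 0.057 to 0.0732), and Pkm and Pdhb (wild-type replicate 1, 3 or 4 or Ldb1-KO replicate 1, 2 or 3, 0.0563 to 0.086 and 0.0635 to 0.111). None of the 14 proliferation genes was called by edgeR in this comparison, with a median log2 difference of -0.22, while 9 of 10 markers of double-positive and mature T cells were higher. The comparisons with wild type share the wild-type libraries, and those with Lmo2tg share the Lmo2tg libraries.

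**Figure D4:**
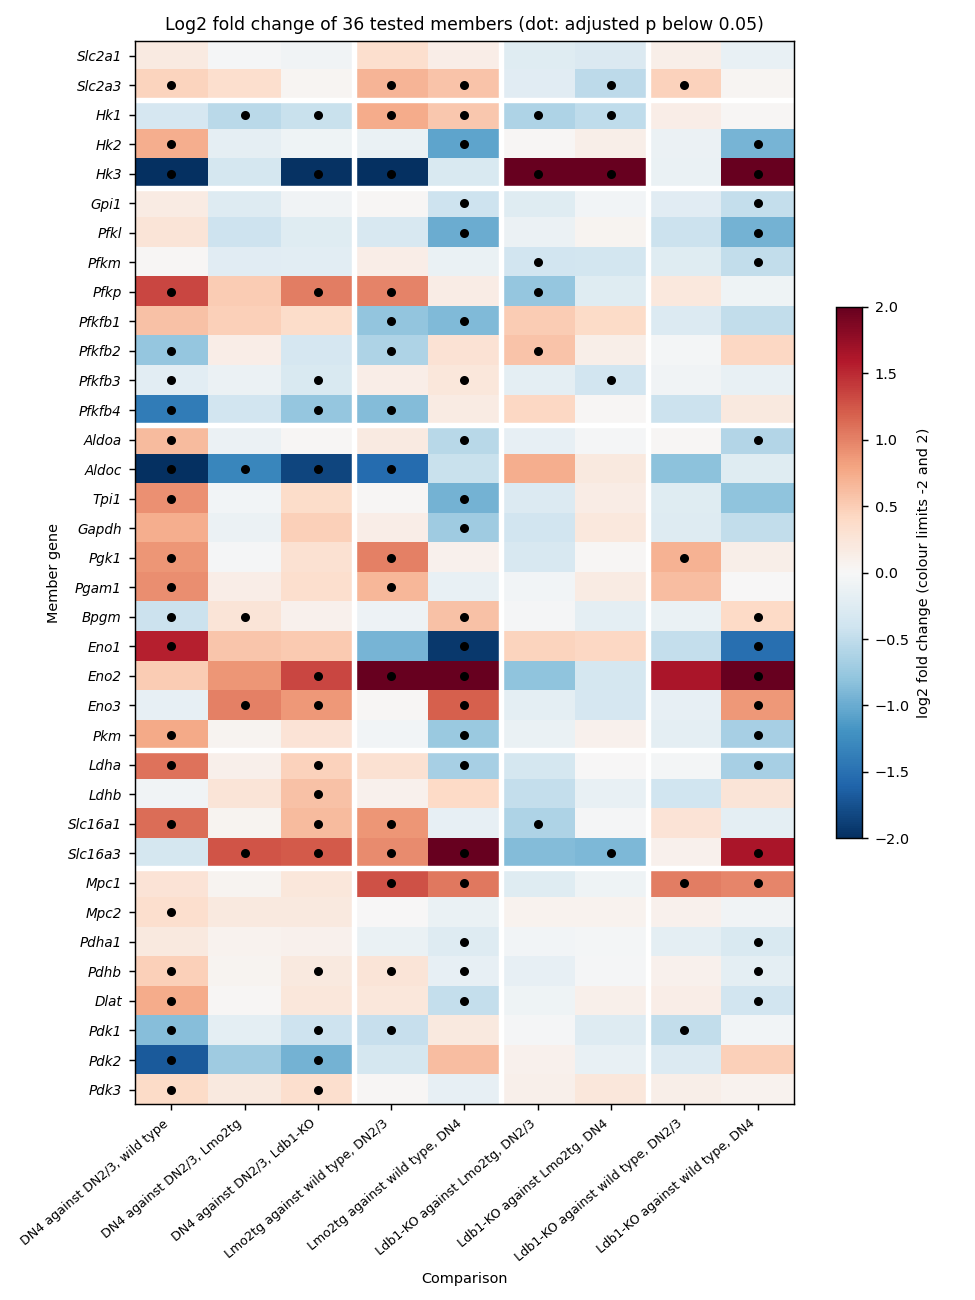
Log2 fold change of the 36 tested members (rows, ordered along the pathway) in the 9 comparisons between groups (columns), with a dot where the adjusted p is under 0.05 and colours limited to 2 units in each direction. Hk1, Hk3 and Slc16a3 carry a dot in 6 of the 9 columns and Slc2a1 in none.

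Counting over the 9 comparisons between groups, Hk1, Hk3 and Slc16a3 were called in 6 and Slc2a3 and Pdhb in 5, whereas Slc2a1, the main glucose transporter of dividing lymphocytes, was called in 0. Slc2a1 had a paired call between the wild-type stages, given above, and group means from 22.4 to 28.4 CPM. Gapdh, Ldhb and Mpc2 were called in 1 each. Of the 36 members, 23 share under 5% of their stretches with other genes. Among these, Lmo2tg DN2/3 differed from wild type in 10, Ldb1-KO DN2/3 in 2 and Ldb1-KO DN4 in 10. The shares of all genes called there were 29.5%, 9.56% and 32.6%.

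Isozyme balance was measured as the log2 ratio of a pair of members within each library, for 13 pairs in the 9 comparisons. None of the 117 exact two-sided permutation tests passed after Benjamini-Hochberg adjustment, the smallest adjusted p being 0.0516, while 55 had an unadjusted p under 0.05. With 4 against 5 libraries the smallest exact p possible is 0.0159. In Lmo2tg DN4 against wild type, the ratio of Hk2 to Hk1 differed by -1.71 log2 units, that of Slc16a1 to Slc16a3 by -2.6, that of Ldha to Ldhb by -1.06 and that of Mpc1 to Mpc2 by 1.16. The ratio of Pfkp to Pfkl differed by 1.27 in DN2/3 and by 1.18 in DN4. These are values of a family in which no test passed.

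The summed level of the 37 members was 5310 CPM at the median in wild-type DN2/3 (4980 to 5930) and 8390 CPM in DN4 (7270 to 8930), without overlap. In Lmo2tg the medians were 5720 CPM (5070 to 7250) and 5500 CPM (4100 to 8430), and in Ldb1-KO 4840 CPM (4570 to 6060) and 5810 CPM (5140 to 7620), with overlap in both. Gapdh, Pkm and Ldha had the highest mean CPM of the members in all 6 groups. The proliferation sums were 3820 CPM and 4620 CPM at the median in Lmo2tg and 4140 CPM and 7230 CPM in Ldb1-KO.

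**Figure D5:**
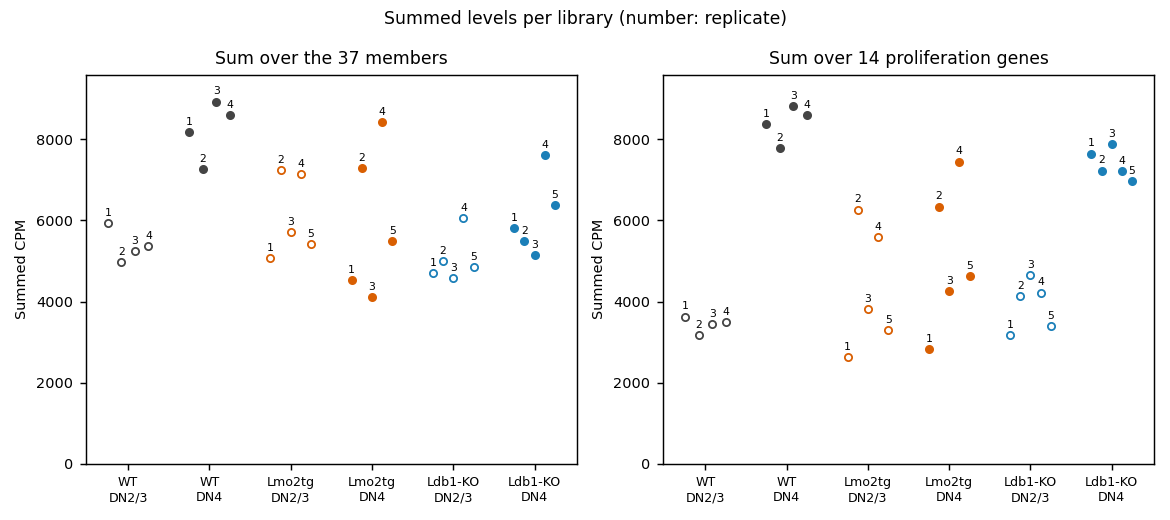
Summed CPM of the 37 members and of the 14 proliferation genes in each library by group, each point marked with its replicate number. Both sums separate the wild-type stages, and in Lmo2tg DN4 they run from 4100 to 8430 CPM and from 2830 to 7450 CPM, with replicate 4 highest in the second.

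Among 35 tested other genes of the pathway, 9 rose and 9 fell between the wild-type stages, where 21.1% of all genes rose and 24.8% fell. In Lmo2tg against wild type, 6 were higher and 9 lower at DN2/3 (15.1% and 14.4% of all genes) and 7 higher and 12 lower at DN4 (28.9% and 23.5%). Slc16a7, the MCT2 transporter, was lower in Lmo2tg at DN2/3 (-4.94, SE 0.57, adjusted p = 2.35e-07) and DN4 (-3.84, adjusted p = 7.33e-06), and higher in Ldb1-KO than in Lmo2tg at both (5.42, adjusted p = 1.41e-07, and 4.1, adjusted p = 1.32e-05). Slc2a8, an intracellular glucose transporter, was higher in Lmo2tg than in wild type (1.63 and 1.49) and lower in Ldb1-KO than in Lmo2tg (-1.38 and -1.28). Pdp1, the phosphatase that reactivates pyruvate dehydrogenase, was higher in Lmo2tg at both stages (0.91 and 0.96). Fbp1, the gluconeogenic fructose bisphosphatase, fell from DN2/3 to DN4 in wild type (-3.31), Lmo2tg (-2.66) and Ldb1-KO (-3.03).

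Of the 8 pentose phosphate genes, 4 rose and 1 fell between the wild-type stages, where 21.1% of all genes rose and 24.8% fell. In DN4, 6 were lower and none higher in Lmo2tg than in wild type (23.5% and 28.9% of all genes). The counts were the same in Ldb1-KO DN4 against wild type (14.4% and 18.2% of all genes). G6pdx, the entry enzyme, rose by 0.75 in wild type (adjusted p = 5.54e-05) and was lower by -0.71 in Lmo2tg DN4 (adjusted p = 4.69e-05). Rpia, the ribose phosphate isomerase, rose by 0.5 and was lower by -0.9 (adjusted p = 3.47e-06). The 24 tested regulators split, with 4 higher and 6 lower between the wild-type stages. Against wild type in DN4, 8 were higher and 6 lower in Lmo2tg, and 5 higher and 6 lower in Ldb1-KO. The median regulator differed by 0.01 log2 units in Lmo2tg DN4, against 0.07 over all genes. Among them Txnip, which restrains glucose uptake, fell between the wild-type stages (-1.27, adjusted p = 1.65e-05). It was higher in DN4 of Lmo2tg (1.91, adjusted p = 3.13e-08) and Ldb1-KO (1.47, adjusted p = 3.98e-06) than of wild type. Myc, a known activator of glycolytic genes, averaged 452 CPM in wild-type DN4, 220 CPM in Lmo2tg DN4 (-1.04, adjusted p = 8.4e-05) and 221 CPM in Ldb1-KO DN4 (-1.03, adjusted p = 0.000399), and did not pass between the wild-type stages (0.31, adjusted p = 0.202). Mycn fell between the wild-type stages (-3.45, adjusted p = 3.72e-10). The 18 other hypoxia-response genes split, with 6 higher and 8 lower between the wild-type stages (21.1% and 24.8% of all genes). In Lmo2tg DN4, 5 were higher and 6 lower than in wild type (28.9% and 23.5% of all genes). The part of these regulators in the members' values was not tested.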

How the data were processed

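Per the labels' protocols, the TruSeq RNA Sample Prep V2 kit was used, and a HiSeq2500 read 101 bases from both ends. The values are whole-number counts per gene symbol in 1 table that the authors deposited. The submitters' processing notes name STAR 2.5.2a, featureCounts 1.4.6-p3 and mm10, with strand and multimapping settings not given in the sources used here. In each library, 73.2% to 86.9% of the counts from 1 to 20 are even, as when both mates of a pair are counted.

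Columns were matched to samples by their labelled names. Counts were filtered (filterByExpr, 14371 genes kept), scaled by TMM and fitted for 6 groups over 28 libraries with edgeR 4.0.16 in R 4.3.3 (robust quasi-likelihood test, Benjamini-Hochberg adjustment over all genes tested, called under 0.05). DESeq2 1.42.0 was an alternative. The procedure was tested on simulated data. CPM values use TMM-scaled library sizes. Same-numbered libraries of the 2 stages correlated in their deviations (r 0.2 to 0.66 in wild type, 0.55 to 0.83 in Lmo2tg, 0.61 to 0.8 in Ldb1-KO, over 9936 genes), so paired fits apply to stage changes and their differences, not between genotypes. Isozyme ratios used a pseudocount of 0.5 counts. Lengths and shared stretches came from GENCODE M21, which held 23366 of 24421 symbols.

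The members and lists were chosen with earlier results of these data known. Members among the 4 calls of lowest adjusted p in any comparison or interaction have their values in every library given where they are called. Other genes are named only from fixed lists, at most 4 per list and comparison. No replicate pair differed by as little as sampling noise (lowest chi-square per degree of freedom 28.5).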

Additional observations from a re-analysis of the deposited data

Results flagged for a closer look

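In 13 of 216 groups of libraries, a member had 1 library far from the others by Dixon's test at the 95% level, where chance gives about 1 in 20 groups. In wild-type DN2/3, Gpi1 stood at 563 CPM in replicate 1 (others 474 to 486) and Pfkfb2 at 31.2 CPM in replicate 1 (40.6 to 42.2). In wild-type DN4, Pdha1 stood at 181 CPM in replicate 4 (207 to 210). In Lmo2tg DN2/3, replicate 4 was high in Gpi1 at 597 CPM (466 to 502) and in Pfkfb1 at 3.02 CPM (1.18 to 1.57), and replicate 2 was low in Pfkfb3 at 76.3 CPM (91 to 94.1). In Lmo2tg DN4, Slc16a3 stood at 19.2 CPM in replicate 2 (4.19 to 7.04). In Ldb1-KO DN2/3, replicate 4 was high in Slc2a1 at 35.4 CPM (19.1 to 22.1) and Ldhb at 85.8 CPM (67.8 to 72.9) and low in Pfkfb2 at 29.5 CPM (37.9 to 41.2). Eno3 stood there at 17.8 CPM in replicate 1 (13.6 to 14.6) and Eno1 at 0.24 CPM in replicate 5 (0.0671 to 0.0856). In Ldb1-KO DN4, Eno1 stood at 0.39 CPM in replicate 4 (0.0623 to 0.132).

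The change from DN2/3 to DN4 differed between Lmo2tg and wild type, by the interaction term of edgeR's quasi-likelihood test, in 14 members. The differences in log2 units were 3.9 for Hk3, 1.61 for Slc16a3, 1.17 for Eno3, 1.02 for Pfkfb4, 0.9 for Pfkfb2, 0.69 for Bpgm and 0.66 for Pdk1. They were -0.42 for Pdhb, -0.71 for Dlat, -0.74 for Aldoa, -0.84 for Pfkp, -0.92 for Pgk1, -0.98 for Ldha and -1.07 for Slc16a1.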

How the results depend on the processing

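The 127 calls of single members were refitted under 2405 alternatives: 2162 kept the call, 243 lost it and 0 changed direction. Fitting only the groups compared called 0 members for Ldb1-KO against Lmo2tg in DN4, 10 for Ldb1-KO against wild type in DN2/3, 0 for the Lmo2tg stage change and 12 for the stage change of Ldb1-KO minus wild type. For that last, added comparison, with 0 members called in the model over all 6 groups, library totals alone and a filter of 1 CPM in 4 libraries each called 1, and DESeq2 called 3. With the replicate block, 28 members were called for the Ldb1-KO stage change, 23 for the Lmo2tg effect on the stage change, 3 for the Ldb1-KO effect and 22 for Ldb1-KO minus wild type. Between genotypes not every same-numbered pair correlated over 0.1 (4 of 5 for Ldb1-KO and Lmo2tg in DN2/3, 3 of 5 in DN4), so the numbers were not taken to pair the samples. The block called 5 for Lmo2tg against wild type in DN4, 9 and 0 for Ldb1-KO against Lmo2tg in DN2/3 and DN4, and 7 for Ldb1-KO against wild type in DN2/3.

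Leaving out 1 replicate at a time gave 13 to 16 (Lmo2tg against wild type, DN2/3), 18 to 23 (DN4), 4 to 8 (Ldb1-KO against Lmo2tg, DN2/3), 3 to 6 (DN4), 2 to 4 (Ldb1-KO against wild type, DN2/3), 13 to 18 (DN4), 18 to 24 (wild-type stages), 2 to 10 (Lmo2tg stages), 10 to 16 (Ldb1-KO stages), 13 to 22 (Lmo2tg effect on the stage change), 0 to 0 (Ldb1-KO effect) and 0 to 1 (Ldb1-KO minus wild type). The isozyme ratios passed in 0 tests throughout.

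Some alternatives were chosen after seeing the data. Members with under 5% shared stretches gave 10, 2 and 10 calls for Lmo2tg DN2/3, Ldb1-KO DN2/3 and Ldb1-KO DN4 against wild type. Fewer genes were counted there. The calls left out in Ldb1-KO DN2/3 were those of Mpc1 and Pgk1, with 14.9% and 67.0% shared stretches. Of all genes, 29.5%, 9.56% and 32.6% were called in these comparisons. The genome-based share planned in place of the transcript-based one was not run. Without Lmo2tg DN4 replicates 2 and 4 there were 10 calls for Ldb1-KO against Lmo2tg in DN4, 12 for the Lmo2tg stages, 22 for the Lmo2tg effect on the stage change and 8 for the Ldb1-KO effect. Without Lmo2tg DN4 replicate 1 and Ldb1-KO DN4 replicate 2 the Lmo2tg stages gave 3. The cause of these changes was not tested. Low counts limit Hk3 and Eno1, and 39.3% of the Eno1 stretches are shared with other genes. The reason for the low Eno1 counts was not tested.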
